A study of Mus musculus with 88 samples.

Results

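The nuclear genes of oxidative phosphorylation were taken as every gene of the deposited annotation whose symbol names a subunit of complex I (Ndufa, Ndufb, Ndufc, Ndufs and Ndufv genes), complex II (Sdha to Sdhd), complex III (Uqcr genes and Cyc1), complex IV (Cox4 to Cox8 genes), the ATP synthase (Atp5 genes) or cytochrome c (Cycs). The rule found 87 of 24453 genes, and genes encoded in mitochondria were left out. By role, 36 belong to complex I, 4 to complex II, 9 to complex III, 20 to complex IV and 15 to the ATP synthase, with Cycs alone as the electron carrier. The remaining 2, Atp5s and Atp5sl, carry the symbol but encode factors and no subunit. Ndufa4 was counted with complex IV, to which its protein belongs. Polyadenylated RNA had been sequenced from 9 tissues of mice with a knockout (KO) of Cdh15, the gene of the muscle cell adhesion protein M-cadherin, and of wild type (WT) mice. All were male, of the strain 100% C57BL/6NTac, 65 to 85 days old and fasted for 18 h. Soleus, EDL (extensor digitorum longus), gastrocnemius, tibialis, heart, kidney, liver, lung and spleen each gave a library per mouse, from 5 KO and 5 WT mice, with 4 WT libraries analysed for kidney and for spleen, 88 in all. The same 10 mice gave the tissues, except that WT mouse 3793543 had no kidney library and WT mouse 3805657 no spleen library. No source used here says how the allele was made.

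The respiratory chain passes electrons from NADH (complex I) and succinate (complex II) to complex III, on to cytochrome c and to oxygen at complex IV, and the ATP synthase uses the proton gradient built on the way. Most subunits are encoded in the nucleus, are made in the cytosol and are imported into mitochondria, where they assemble with the mitochondrially encoded core. Heart and slow skeletal muscle are known as tissues rich in mitochondria, and several complex IV subunits exist as a widely expressed form and a form of striated muscle.

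Libraries held 8.21 to 25.1 M gene counts, and levels are given as CPM, counts per M counts after TMM scaling. The scaling differed by comparison, so the CPM of a library can differ between paragraphs. Cdh15 itself reached 1.05 to 3.93 CPM in the 20 KO muscle libraries and 11.6 to 24.2 CPM in the 20 WT muscle libraries, with no overlap, and at most 2 reads in any other library. The tissue labels fitted their marker genes: 5 hepatocyte genes summed to 96607 to 125016 CPM in KO liver and 106935 to 133986 CPM in WT liver, and 6 heart genes to 34706 to 38639 CPM in KO heart and 34443 to 36574 CPM in WT heart. Slow fibre genes summed to at least 6954 CPM in soleus libraries and to at most 814 CPM in those of the other skeletal muscles. Cox8c, a testis form, had 0 reads in all 88 libraries, which allows up to 3 reads a library, and Cox7b2 had at most 4 reads. Ndufs5 had at most 41 reads, in 14 libraries, and a near-identical copy, Ndufs5-ps, is annotated elsewhere, so its level is uncertain. Expected counts of 13 members held fractions of reads, among them Cycs, Ndufa4, Cox7c and Atp5g1 to Atp5g3, so reads of these may have been shared with similar sequences. In bulk tissue fewer cells of a type and less RNA per cell cannot be told apart.

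The summed reads of the 87 genes differed by tissue. They took 2.95 ± 0.09% of gene counts in KO heart and 3.05 ± 0.06% in WT heart (SD, n = 5 each), the highest of the 9 tissues. Soleus followed with 2.28 ± 0.27% in KO and 1.89 ± 0.12% in WT mice. EDL had 1.66 ± 0.08% in KO and 1.50 ± 0.14% in WT mice, and tibialis 1.64 ± 0.09% in KO and 1.64 ± 0.08% in WT mice. Kidney had 1.62 ± 0.04% in KO and 1.64 ± 0.02% in WT mice (n = 5 and 4), and gastrocnemius 1.21 ± 0.04% in KO and 1.22 ± 0.07% in WT mice. Liver came lower, with 1.02 ± 0.04% in KO and 1.04 ± 0.02% in WT. Lung with 0.565 ± 0.025% in KO and 0.589 ± 0.008% in WT, and spleen with 0.574 ± 0.046% in KO and 0.562 ± 0.074% in WT (n = 5 and 4), shared the bottom, and their libraries overlapped. EDL, tibialis and kidney changed places between the genotypes. WT tibialis libraries (1.57 to 1.76%) overlapped those of WT EDL (1.26 to 1.60%) and WT kidney (1.63 to 1.67%), and WT EDL overlapped WT gastrocnemius (1.12 to 1.31%). In KO mice EDL (1.56 to 1.78%), tibialis (1.53 to 1.75%) and kidney (1.58 to 1.67%) all overlapped.

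**Figure D1:**
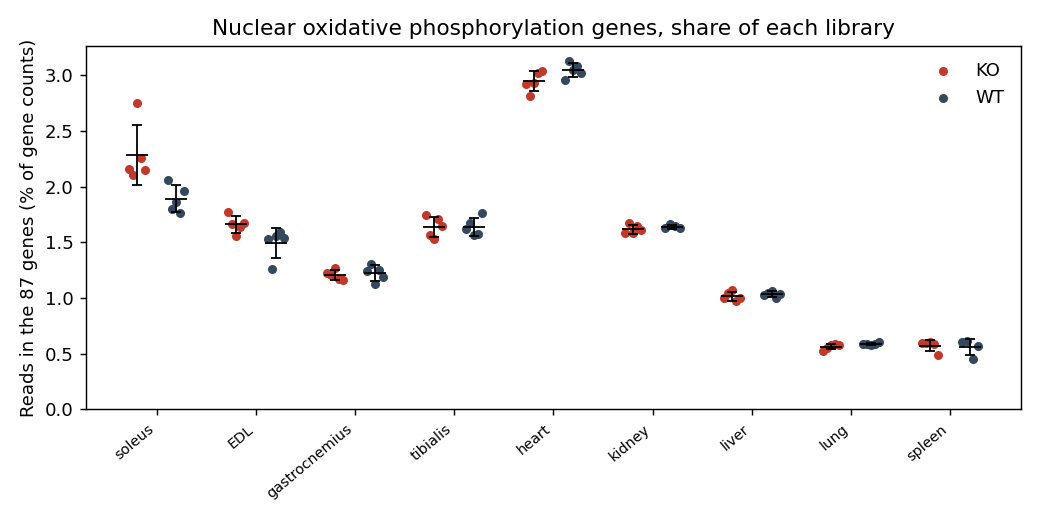
Share of gene counts (%) in the 87 genes for each library, by tissue, with KO points left of WT points and the mean and SD in black. Heart libraries sit between 2.81 and 3.13%, above every other tissue, and the 5 KO soleus libraries lie above the 5 WT soleus libraries.

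Per length, the members of WT heart had a median of 358 RPKM (counts per kilobase of transcript and per M counts, the authors' values), against 230 RPKM in WT soleus, 184 in tibialis, 183 in kidney, 178 in EDL, 140 in gastrocnemius, 121 in liver, 71.6 in lung and 65.2 in spleen. Heart was the WT tissue of highest mean level for 77 of the 87 members, Cox7b2 at its trace level included. The exceptions were Ndufb4, Cox6a1 and Cox8a in kidney, Cox4i2, Cox6b2, Ndufa4l2 and Ndufs5 in lung, and Atp5sl and Cox7a2l in spleen, beside the unread Cox8c. In WT heart complex IV had the highest median of the complexes, 764 RPKM, then the ATP synthase with 734, complex III with 434, complex II with 319 and complex I with 265 RPKM. Complex I was also the lowest of the complexes by median in the 4 WT skeletal muscles, kidney, liver and lung, but not in spleen, where complex II had 50.8 RPKM and complex I 58.6 RPKM. Within WT heart the top member by the authors' RPKM was Cox6a2 with 1966 ± 124 RPKM. Atp5b, the catalytic beta subunit of the ATP synthase, followed with 1878 ± 46.7 RPKM, and Cox4i1 with 1328 ± 38.8 RPKM (SD, n = 5). The length behind these values was 400 bases for Cox6a2, against 659 exon bases in the annotation. For Atp5b it was 1761 against 1879 bases, so the first place of Cox6a2 rests on that choice of length. In WT lung and spleen Uqcrh, the hinge protein of complex III, stood first by the authors' RPKM. It had 277 ± 9.12 RPKM in lung (n = 5) and 323 ± 5.74 RPKM in spleen (n = 4). Its length behind these values was 445 bases, against 546 exon bases.

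**Figure D2:**
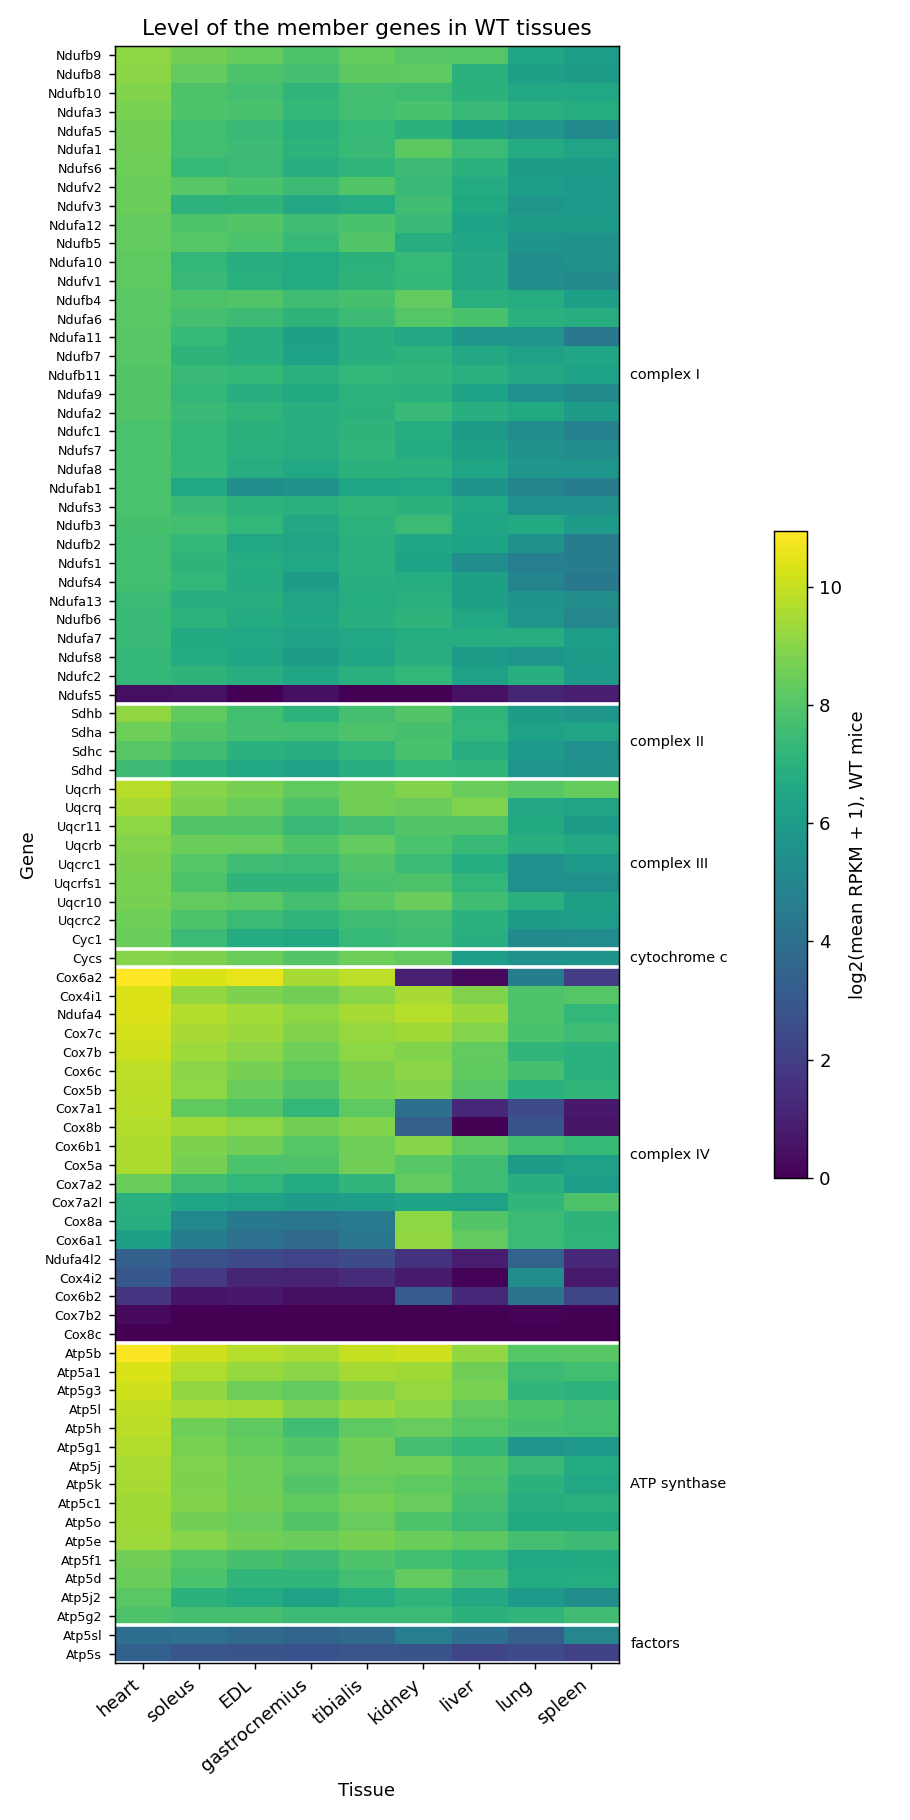
Mean level of the member genes, all but 1 of the 87, in the 9 WT tissues, as log2 of the mean RPKM + 1, with genes grouped by complex and ordered by their heart level. Most rows are brightest in heart, while Cox6a2, Cox7a1 and Cox8b are dark outside striated muscle and Cox6a1 and Cox8a are brightest in kidney.

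Paralogs of complex IV divided the tissues. Cox7a1 (chromosome 7, 30184171 to 30186030, mm10, 4 exons) and Cox8b (chromosome 7, 140898942 to 140900446, minus strand, 2 exons) encode the muscle forms of subunits VIIa and VIII, and Cox7a2 and Cox8a the widely expressed forms. Their RefSeq promoter windows on GRCm38.p6, each 250 bases before to 50 bases after the gene start, are shown because each pair holds a muscle form and a widely expressed form of a subunit. Cycs is shown beside them as a widely expressed member. Capitals mark the motifs searched on both strands: the core of the NRF1 site GCATGCGC, the core of ETS sites CCGGAAG, the TATA box TATAAA, the E-box CAGCTG, the half-site of ERR receptors AAGGTCA, the CCAAT box CCAAT, the GC box GGGCGG and the MEF2 site CTAAAAATA.
Cox7a1, chr7:30183921-30184220, plus strand: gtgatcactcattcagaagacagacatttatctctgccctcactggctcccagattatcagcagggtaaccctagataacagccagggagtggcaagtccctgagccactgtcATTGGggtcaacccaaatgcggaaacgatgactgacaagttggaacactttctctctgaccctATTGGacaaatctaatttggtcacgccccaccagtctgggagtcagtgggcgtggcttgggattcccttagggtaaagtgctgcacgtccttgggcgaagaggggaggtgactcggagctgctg
Cox7a2, chr9:79759804-79760103, minus strand: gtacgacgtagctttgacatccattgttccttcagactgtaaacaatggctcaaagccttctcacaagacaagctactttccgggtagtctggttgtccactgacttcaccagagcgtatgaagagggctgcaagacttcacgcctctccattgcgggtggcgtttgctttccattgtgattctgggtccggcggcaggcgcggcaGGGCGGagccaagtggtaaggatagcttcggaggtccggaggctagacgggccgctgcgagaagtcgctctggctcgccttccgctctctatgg
Cox8b, chr7:140900397-140900696, minus strand: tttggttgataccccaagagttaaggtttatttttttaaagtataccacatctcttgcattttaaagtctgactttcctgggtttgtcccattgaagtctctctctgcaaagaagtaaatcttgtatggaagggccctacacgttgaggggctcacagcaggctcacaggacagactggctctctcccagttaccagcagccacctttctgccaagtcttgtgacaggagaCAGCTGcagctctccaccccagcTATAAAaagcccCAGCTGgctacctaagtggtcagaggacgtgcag
Cox8a, chr19:7217567-7217866, minus strand: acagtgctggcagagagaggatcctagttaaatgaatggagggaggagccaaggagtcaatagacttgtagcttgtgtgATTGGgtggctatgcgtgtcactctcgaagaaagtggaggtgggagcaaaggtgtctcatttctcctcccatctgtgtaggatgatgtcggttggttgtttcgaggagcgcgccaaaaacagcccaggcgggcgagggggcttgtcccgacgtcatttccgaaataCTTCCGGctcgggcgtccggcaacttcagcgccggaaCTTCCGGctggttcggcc
Cycs, chr6:50566520-50566819, minus strand: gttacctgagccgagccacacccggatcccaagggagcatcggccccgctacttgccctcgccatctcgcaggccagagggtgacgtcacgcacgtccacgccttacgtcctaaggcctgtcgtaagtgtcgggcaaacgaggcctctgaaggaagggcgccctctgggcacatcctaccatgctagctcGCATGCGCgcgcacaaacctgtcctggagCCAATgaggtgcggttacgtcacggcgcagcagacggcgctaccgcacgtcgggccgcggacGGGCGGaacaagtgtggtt
The window of Cox8b held the TATA box and the E-box, that of Cox7a1 the CCAAT box, that of Cox7a2 the GC box and that of Cox8a the ETS core and the CCAAT box. That of Cycs held the NRF1 core, the CCAAT box and the GC box. Windows were at hand for 71 of the 87 members, 77 windows in all, and these had a median GC content of 57.7%, against 52.7% over all 32851 windows. The NRF1 core stood in 11 of the 77 windows (14.3%), against 2.71% of all windows, and the ETS core in 16 (20.8%), against 8.86%. The ERR half-site was found in 8 windows (10.4%, against 4.72%), the CCAAT box in 33 (42.9%, against 37.4%) and the GC box in 31 (40.3%, against 35.7%). The TATA box was in 8 windows (10.4%, against 13.6%), the E-box in 6 (7.79%, against 16.3%) and the MEF2 site in 0 (against 0.517%). A match is a description of the letters, and binding was not measured.

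Cox6a2, the muscle form of subunit VIa, made 96.4 ± 0.47% of the RPKM of the Cox6a1 and Cox6a2 pair in KO heart and 96.5 ± 0.52% in WT heart (SD, n = 5 each), and between 97.7 and 99.1% in every skeletal muscle library. In kidney and liver it was at most 0.251% of the pair. Cox8b made 96.0 ± 0.73% of its set in KO soleus and 95.3 ± 0.92% in WT soleus, but 87.6 ± 0.44% in KO heart and 87.8 ± 0.58% in WT heart, so heart kept more of the widely expressed Cox8a than the skeletal muscles did in every library. Cox8b was read 0 or 1 time per library in liver. Cox7a1 took 63.9 ± 0.89% of the Cox7a1, Cox7a2 and Cox7a2l set in KO heart and 64.3 ± 1.2% in WT heart, the highest of the tissues. In gastrocnemius it took 47.2 ± 0.74% in KO and 46.9 ± 1.7% in WT, the lowest of the 5 striated muscles. In spleen Cox7a2l, a factor of respiratory supercomplexes, made 76.3 ± 4.0% of that set in KO (n = 5) and 77.1 ± 3.7% in WT mice (n = 4). KO and WT ranges of the shares given here overlapped.

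Lung stood apart among the inner organs in several paralogs. Cox4i2, the form of subunit IV known for lung, made 15.1 ± 0.72% of the Cox4i1 and Cox4i2 pair in KO lung and 14.3 ± 1.8% in WT lung (SD, n = 5 each), and at most 0.643% in any library of another tissue. Its level in WT lung was 40.4 ± 6.76 RPKM, against 6.86 ± 1.26 RPKM in WT heart, the next tissue. Cox6b2 took 8.31 ± 1.1% of its pair in KO lung and 8.02 ± 1.2% in WT lung. Ndufa4l2, a paralog of Ndufa4, took 3.28 to 5.45% of the pair in KO lung and 3.02 to 5.32% in WT lung. Cox6a2 reached 10.3 ± 0.36% of its pair in KO lung and 11.9 ± 2.1% in WT lung, where the 6 heart marker genes summed to 92.1 to 217 CPM in KO and 98.8 to 162 CPM in WT. The part of those heart markers in the lung value of Cox6a2 was not tested. The 3 genes for the c ring of the ATP synthase also split by tissue, although their mature proteins are the same. Atp5g2 made 48.8 to 56.5% of the set in KO spleen and 46.4 to 56.4% in WT spleen, but 10.7 ± 0.50% in KO heart and 10.7 ± 0.40% in WT heart. Atp5g3 led in liver, with 60.1 ± 1.5% in KO and 60.2 ± 0.78% in WT.

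**Figure D3:**
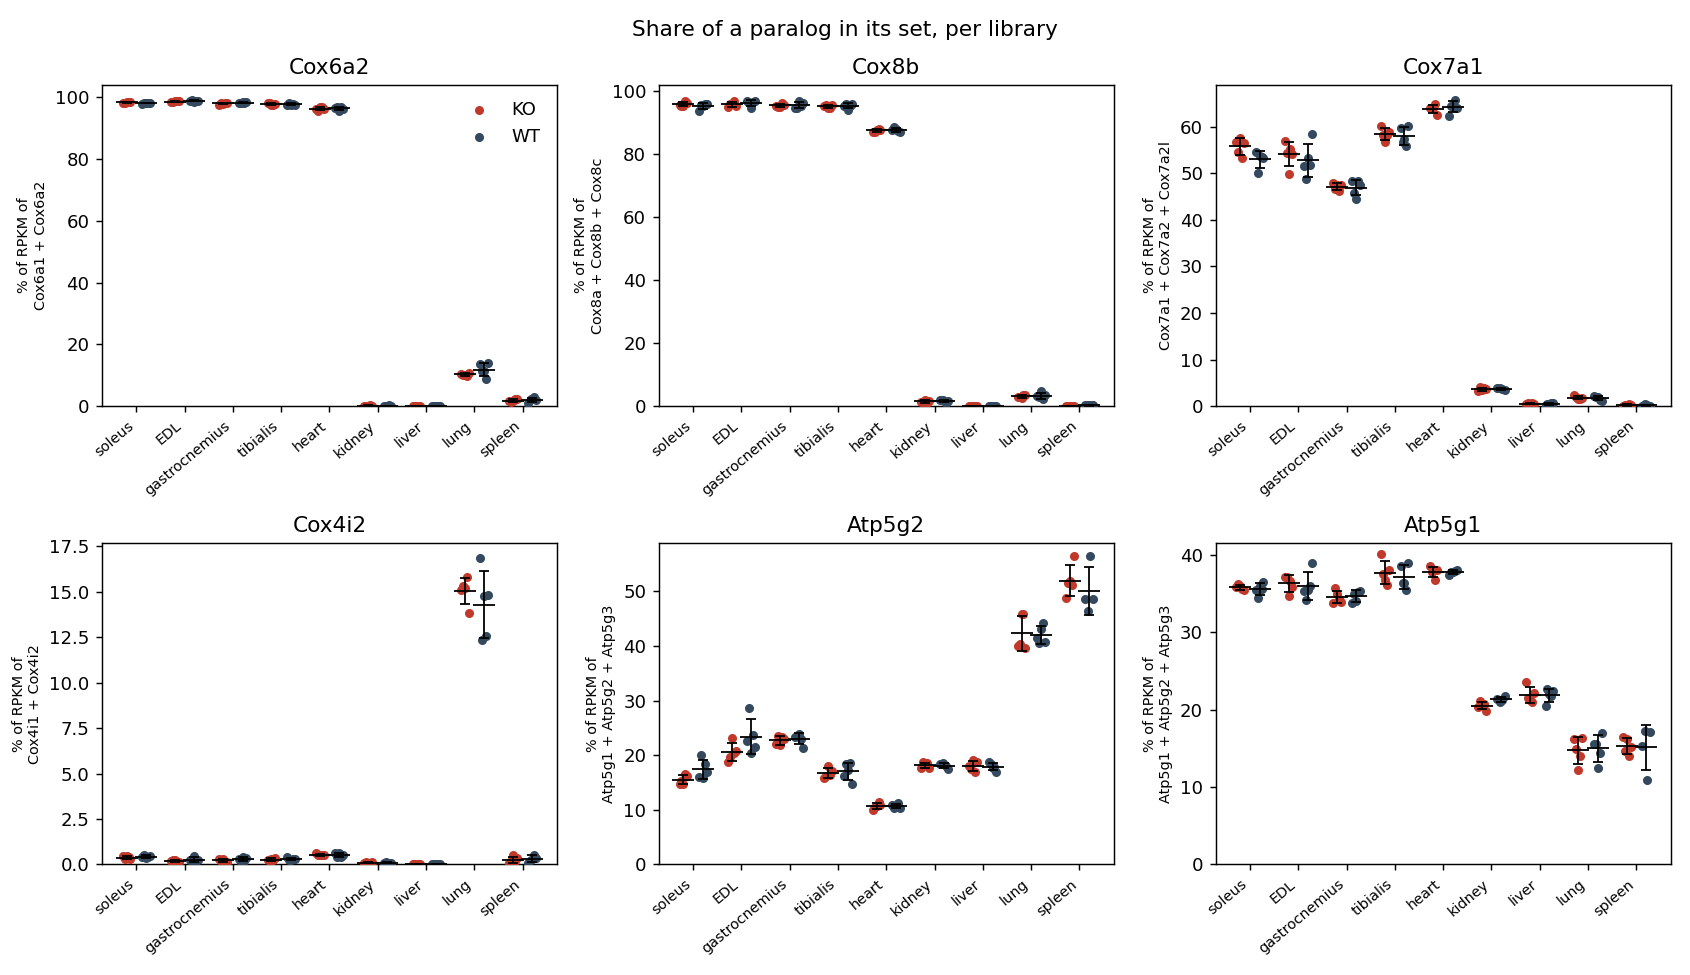
Share of 6 paralogs in the RPKM of their set (%), for each library by tissue, with KO left of WT and the mean and SD in black. Cox6a2, Cox8b and Cox7a1 stand highest in the 5 striated muscles, Cox4i2 in lung, and Atp5g2 in spleen and then lung.

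Against the 4 WT inner organs, the 5 WT striated muscles had 81 of 85 tested members higher and 3 lower by edgeR's quasi-likelihood test with Benjamini-Hochberg adjustment over all genes. Of all 16842 genes tested, 84.3% passed, 40.4% higher and 43.9% lower, and the members' median log2 fold change was 1.77 and that of all genes -0.14. Ndufs1, a core subunit of complex I, had 306 to 569 CPM with a median of 425 in striated muscle, against 26.2 to 187 CPM with a median of 85.3 in the organs. The groups did not overlap, and its log2 fold change was 2.54 ± 0.04 (SE, adjusted p = 2.84e-41). Cycs rose by 2.51 ± 0.05 and Atp5g1 by 2.82 ± 0.05. Cox6a2, Cox8b and Cox7a1 showed the widest gaps, with log2 fold changes of 9.40 ± 0.12, 9.18 ± 0.09 and 7.59 ± 0.08. Cox8b had at most 3.16 CPM in an organ library and at least 125 CPM in a muscle library. The 3 members that fell were their counterparts, Cox6a1 by 2.68 ± 0.04 and Cox8a by 1.93 ± 0.05, and Cox6b2 by 2.17 ± 0.16, which had at most 1.63 CPM in a muscle and 4.35 CPM in an organ library. The member not called was Ndufs5.

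Among the striated muscles, WT heart had 79 of 84 tested members higher and 1 lower than the 4 WT skeletal muscles, where 80% of 13833 genes passed, 40.8% higher and 39.2% lower. The median log2 fold change of the members was 0.65, against 0.03 for all genes. Complex IV had the widest median gap of the complexes, 0.87, with all 18 tested members higher, while complex I had 0.52. Cox8a had 39.0 to 43.8 CPM in heart with a median of 42.4, against 6.73 to 20.5 CPM with a median of 12.1 in the muscles, a log2 fold change of 1.74 ± 0.09. Cox4i2 rose by 1.84 ± 0.17, Cox6a1 by 1.65 ± 0.07, Cox7a1 by 1.49 ± 0.07, Ndufab1, the acyl carrier protein of complex I, by 1.48 ± 0.13 and Atp5h, a stalk subunit of the ATP synthase, by 1.31 ± 0.06. For these 6 members the heart libraries lay above every skeletal muscle library. Atp5sl fell by 0.25 ± 0.06 (adjusted p = 0.0009). Ndufs4, Ndufa12, Ndufb4 and Atp5g2 did not pass, with log2 fold changes between -0.05 and 0.15. Cycs rose by only 0.21 ± 0.06 (adjusted p = 0.00294), with 428 to 512 CPM in heart and 296 to 497 CPM in the muscles, which overlapped.

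WT soleus, known to hold more slow fibres than the other muscles, had 67 of 83 tested members higher and 0 lower than WT EDL, gastrocnemius and tibialis, where 20.5% of 13172 genes passed in either direction with 12.8% higher and 7.7% lower. All 83 estimates lay above 0 and their median was 0.30 on the log2 scale, against 0.00 over all genes. With the mouse as a replicate block, 72 members were called, and 27.8% of all genes. Higher were 25 of 35 tested members of complex I, 3 of 4 of complex II, 8 of 9 of complex III, Cycs, 15 of 17 of complex IV and 14 of 15 of the ATP synthase. Sdhb, the iron-sulfur subunit of succinate dehydrogenase, had 254 to 335 CPM in soleus with a median of 281, against 132 to 244 CPM with a median of 200 in the other muscles. Its groups did not overlap, and its log2 fold change was 0.60 ± 0.07 (adjusted p = 5.12e-06). Sdha, its partner subunit, reached 0.14 ± 0.05 and did not pass (adjusted p = 0.0546). Ndufb3, a membrane arm subunit of complex I, rose by 0.59 ± 0.08, Cox8a by 0.59 ± 0.12, Cox5b by 0.54 ± 0.12, Ndufab1 by 0.61 ± 0.15 and Cox4i2, at 1.74 ± 0.21 CPM in soleus, by 0.88 ± 0.22. Ndufab1 overlapped, with 56.9 to 80.7 CPM in soleus and 24.2 to 86.1 CPM in the other muscles, and its call was lost without WT mouse 3817948 (adjusted p = 0.0514). Ndufa12 and Ndufb4 did not pass, with estimates of 0.01 and 0.04. In KO mice the same comparison had 79 of 84 members higher, with 53.6% of all genes called and 27.4% higher, and a median of 0.46.

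WT kidney against WT liver gave no common direction: 19 of 82 tested members were higher in kidney and 35 lower, where 81.2% of 14287 genes passed, 42.2% higher and 39.1% lower, and the median log2 fold change was -0.06. Uqcrq, a small subunit of complex III, had 103 to 105 CPM in kidney, against 190 to 231 CPM in liver, without overlap, and fell by 1.04 ± 0.06 (adjusted p = 4.11e-10). Ndufa7 fell by 0.65 ± 0.06, Ndufb9 by 0.64 ± 0.07, Sdhd, a membrane anchor of complex II, by 0.62 ± 0.06, Cox7a2l by 0.59 ± 0.06 and Ndufb2 by 0.55 ± 0.06. Ndufb4 rose by 0.67 ± 0.06, Cycs by 0.65 ± 0.09 and Ndufb8 by 0.54 ± 0.06. Cox7a1 had 3.80 to 4.66 CPM in kidney, against 0.366 to 0.831 CPM in liver, and rose by 2.78 ± 0.19, and Cox6b2 rose by 1.84 ± 0.22. Cox8b was read 46 to 94 times per WT kidney library and 0 or 1 time per WT liver library. Of the 15 ATP synthase members 10 were lower in kidney and 1 was higher.

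Between KO and WT mice, no member passed the adjusted threshold in any of the 9 tissues. Across soleus genes 1 of 12965 passed, Cdh15, which is 0.00771%. The members' estimates leaned to the higher side in soleus: 80 of 83 tested estimates lay above 0, and the median on the log2 scale was 0.22, against 0.02 over all genes. At an unadjusted p under 0.05 there were 57 of 83 members, all higher in KO, where 17.2% of all genes met that limit and 8.42% did so in the higher direction. DESeq2's Wald test called 22 members, all higher in KO, and 165 genes in all, 6.21% of the 2659 genes to which it gave an adjusted p. How many of the 83 members were among these 2659 is not given. In 37 of 83 members every KO library lay above every WT library, which held in the higher direction for 1.68% of all genes.

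Complex I had 33 of 35 tested estimates above 0 in soleus, and complexes II, III and IV and the ATP synthase had all of theirs above 0. The medians were 0.21 for complex I, 0.29 for complex II, 0.25 for complex III, 0.25 for complex IV and 0.22 for the ATP synthase. Ndufb5, a membrane arm subunit of complex I, had 214, 250, 292, 248 and 240 CPM in KO mice 3779417, 3793546, 3805666, 3805676 and 3817943. It had 211, 186, 189, 186 and 202 CPM in WT mice 3793543, 3793553, 3805657, 3805673 and 3817948. The lowest KO value was just above the highest WT value, and the log2 fold change was 0.35 ± 0.09 (edgeR adjusted p = 0.238, DESeq2 adjusted p = 0.013). In the same order of mice, Sdhb had 369, 385, 470, 383 and 365 CPM in KO and 355, 270, 304, 292 and 302 CPM in WT soleus, with a log2 fold change of 0.37 ± 0.10 (edgeR adjusted p = 0.238, DESeq2 adjusted p = 0.0164). Cox7a1 had 143, 140, 204, 147 and 149 CPM in KO and 132, 104, 111, 110 and 120 CPM in WT soleus, with a log2 fold change of 0.44 ± 0.11 (edgeR adjusted p = 0.238, DESeq2 adjusted p = 0.0185). For both members KO mouse 3805666 was highest, WT mouse 3793543 was the highest of its group, and the groups did not overlap.

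KO mouse 3805666 was the highest KO library for 78 of the 83 members in soleus. Without it, 75 of 83 estimates were positive, the median was 0.16, and 48 members had an unadjusted p under 0.05. The share of all genes under that limit is not given for this edgeR fit. DESeq2's Wald test without that mouse, an alternative added after seeing the data, called 19 members, all higher, and 3.8% of the 2923 genes with an adjusted p. At an unadjusted p under 0.05 the DESeq2 fit had 54 of 83 members, all higher, against 11.4% of all genes in either direction. WT mouse 3793543 was the highest WT library for 51 members and 3793553 the lowest for 42. Members that stayed near 0 were Ndufab1 with a log2 fold change of -0.12 ± 0.15, Ndufb2 with -0.06 ± 0.10, Cox5a, a complex IV subunit, with 0.00 ± 0.11 and Atp5d, the delta subunit of the ATP synthase, with 0.02 ± 0.10. The widest estimates were Ndufb3 with 0.47 ± 0.13, Cox7a1, Cox8b with 0.38 ± 0.13 and Atp5h with 0.38 ± 0.11.

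Fibre type markers differed in the same libraries. The 7 slow fibre genes summed to 15470, 11858, 29436, 18071 and 12377 CPM in KO soleus, against 12944, 6954, 10718, 7272 and 8077 CPM in WT soleus, with mice in the order given for Ndufb5. The 7 fast fibre genes summed to 68708, 98494, 23934, 69418 and 76388 CPM in KO and to 74213, 120522, 114226, 135678 and 114370 CPM in WT soleus. KO mouse 3805666 had the most slow and the least fast fibre RNA and the largest share of member reads, 2.75%, and WT mouse 3793543 had the most slow fibre RNA and the largest share, 2.06%, of the WT mice. The other KO soleus libraries had 2.16, 2.10, 2.26 and 2.15%, and the other WT ones 1.80, 1.86, 1.77 and 1.97%. Mitochondrially encoded genes, in the same direction, took 23.4 to 27.3% of counts in KO and 19.7 to 22.7% in WT soleus. The fast fibre genes outweighed the slow ones in 9 of the 10 soleus libraries. Markers of other cells also leaned to the higher side in KO soleus. All 5 macrophage genes had positive estimates with a median of 0.60, and they summed to 49.8 to 105 CPM in KO and 36.0 to 61.4 CPM in WT soleus. The same held for 6 of 6 adipocyte genes (median 0.34), 5 of 5 endothelial genes (0.22) and 6 of 6 nerve sheath genes (0.26), and the sums of these 4 lists overlapped between the genotypes. Of the 3 brown adipocyte genes Cox8b is itself a member, and Ucp1, which defines that cell, had at most 0.779 CPM in KO and 2.44 CPM in WT soleus. A list of 4 skeletal muscle genes, which shares a gene with the fast fibre list, had 0 positive estimates with a median of -0.29. These genes summed to 41099 to 57364 CPM in KO and 49096 to 65234 CPM in WT soleus. Their values are therefore not independent of the fast fibre genes. No gene of these lists passed between KO and WT soleus, and the part of fibre type or of other cells in the member values was not tested.

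**Figure D4:**
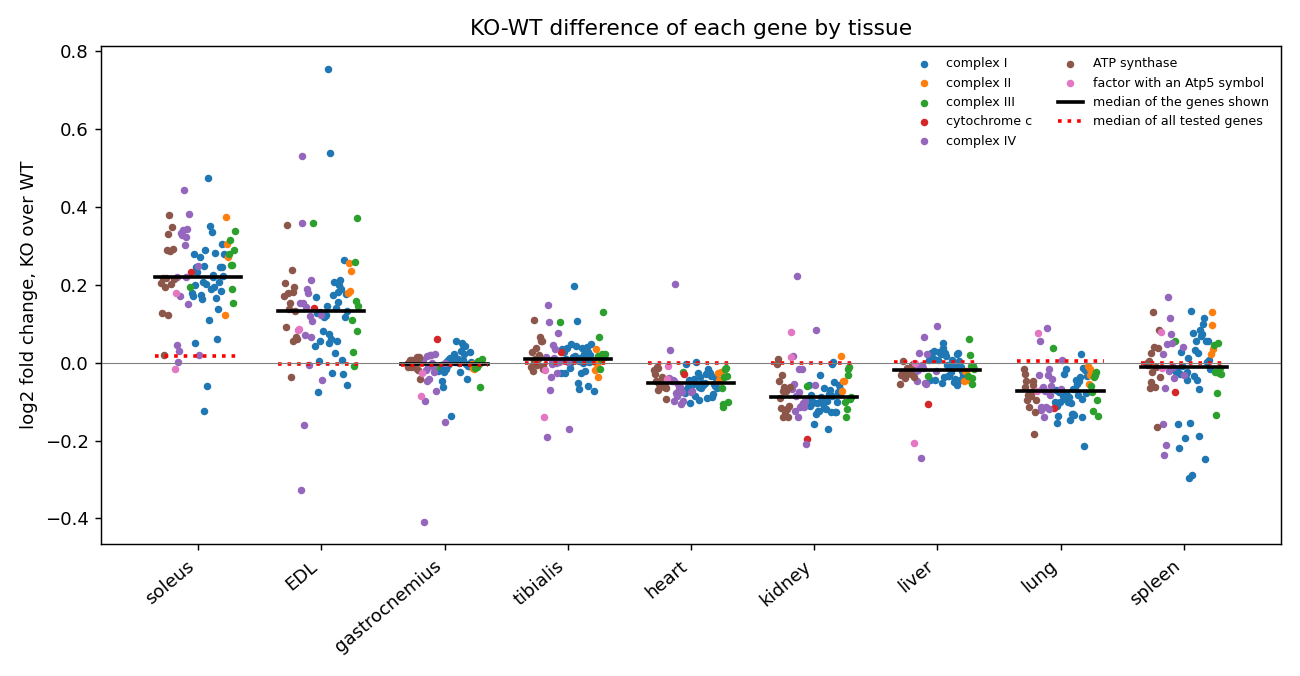
Log2 fold change of KO over WT for each tested member in each tissue, coloured by complex, with the median of the members as a black line and that of all tested genes as a red dotted line. The member median is 0.22 in soleus and 0.13 in EDL, near 0 in gastrocnemius, tibialis, liver and spleen, and below 0 in heart, kidney and lung.

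The KO-WT difference in soleus was set against the mean difference of EDL, gastrocnemius and tibialis in the 40 muscle libraries. No gene of 13534 passed (0%), and 16.4% had an unadjusted p under 0.05. Of 84 members, 77 had a positive difference with a median of 0.20, and 48 had an unadjusted p under 0.05, all higher. Without KO mouse 3805666 that count was 13 and the median was 0.10. The share of all genes under that limit is not given for the fit without that mouse. Since muscles of 1 mouse are linked, the mouse was also used as a replicate block, and then 6 members passed, all higher, with 4.37% of all genes called, 1.35% higher. They were Ndufb3 (0.46 ± 0.11, adjusted p = 0.0278), Cox7c (0.34 ± 0.09, adjusted p = 0.0344), Ndufv3 (0.32 ± 0.09), Cox6a2 (0.40 ± 0.12), Atp5h (0.36 ± 0.11) and Cox7a2l (0.22 ± 0.06, adjusted p = 0.0495). DESeq2's Wald test called 10 members, all higher, and 6.46% of the 5138 genes with an adjusted p. Without KO mouse 3805666, in fits added after seeing the data, no member passed with the block, where 0% of all genes were called. There 19 of 84 members had an unadjusted p under 0.05, all higher, against 13.8% of all genes in either direction. DESeq2 without that mouse also called 0 members, and 7.11% of the 942 genes with an adjusted p. How many members were among those 942 is not given, so these 0 calls cannot be read as a loss. At an unadjusted p under 0.05 that fit had 13 of 84 members, 12 of them higher, against 8.95% of all genes. Without a block and with all mice, Ndufb3 had 0.47 ± 0.12 (adjusted p = 0.0758). Ndufb3 had 113, 114, 177, 126 and 122 CPM in KO soleus and 112, 98.1, 88.9, 78.8 and 92.2 CPM in WT soleus, in the order of mice above, and the groups did not overlap. Cox7c, a small complex IV subunit, had 271, 296, 402, 335 and 301 CPM in KO and 250, 258, 248, 246 and 264 CPM in WT soleus, also without overlap.

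In EDL 73 of 83 member estimates were positive, with a median of 0.13, against 0.00 for all genes, but 1 gene of 12875 passed (0.00777%), Cdh15. An unadjusted p under 0.05 was reached by 19 members, all higher, against 4.58% of all genes. That count was 10 without KO mouse 3793546 and 12 without KO mouse 3779417 or WT mouse 3793553. It was 32 without KO mouse 3805666 and 35 without WT mouse 3817948. The share of all genes under that limit is not given for these fits. Ndufab1 led, with 55.1, 53.9, 52.1, 51.7 and 72.6 CPM in KO mice 3779417, 3793546, 3805666, 3805676 and 3817943, against 31.6, 26.6, 44.6, 31.4 and 34.9 CPM in WT mice 3793543, 3793553, 3805657, 3805673 and 3817948. The groups did not overlap, the log2 fold change was 0.75 ± 0.13, and the edgeR adjusted p was 0.714 while DESeq2 gave 0.000976, its only call among the members. Without WT mouse 3805657, the highest of its group, edgeR gave 0.87 ± 0.11 (adjusted p = 0.03). Cox5a had 209, 195, 177, 179 and 235 CPM in KO and 146, 102, 170, 149 and 122 CPM in WT EDL, without overlap, and a log2 fold change of 0.53 ± 0.13 (edgeR adjusted p = 0.986). Ndufb2, an accessory subunit of complex I, had 0.54 ± 0.17, Uqcrfs1, the Rieske protein of complex III, 0.37 ± 0.12, Cyc1, its cytochrome c1, 0.36 ± 0.10, and Atp5d 0.35 ± 0.10, and their ranges overlapped. These members lead in EDL, while Ndufab1, Ndufb2, Cox5a and Atp5d stood near 0 in soleus. WT mouse 3793553 was lowest for 55 of 83 members in EDL and had 1.26% of its reads in members, against 1.53 to 1.60% in the other WT libraries. In EDL the 7 slow fibre genes had 0 positive estimates with a median of -1.22 and summed to 58.9 to 163 CPM in KO and 109 to 377 CPM in WT EDL, and the 7 fast fibre genes had 0 positive estimates with a median of -0.08. The 6 adipocyte genes had 0 positive estimates with a median of -0.65. No gene of these lists passed, and their part in the member values was not tested.

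**Figure D5:**
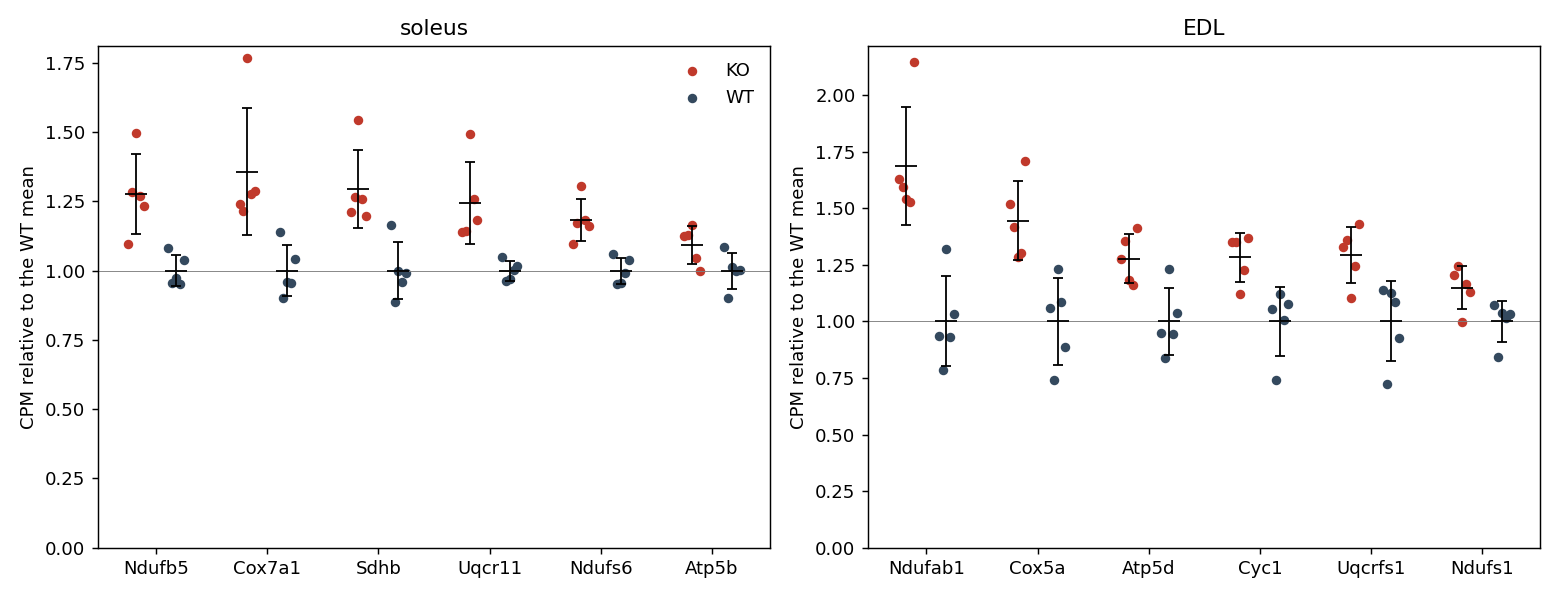
CPM of 6 members in soleus (left) and 6 in EDL (right), each divided by the WT mean of that gene, with KO points left of WT points and mean and SD in black. In soleus the KO points of Ndufb5, Cox7a1, Sdhb, Uqcr11 and Ndufs6 lie above the WT points, and in EDL Ndufab1 and Cox5a separate.

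Several of the members named for EDL varied together over the libraries pooled across tissues. After group means and the median of each library were removed, Ndufab1 correlated over the 88 libraries with Cox5a (Pearson r = 0.80), Cox5b (0.69), Atp5d (0.68), Cox8a (0.54), Ndufb2 (0.45) and Uqcrfs1 (0.41). These are the members of highest r, so the other 74 members with a mean of 5 CPM or more lie lower by that choice. The next values were 0.33 for Atp5b and 0.31 for Uqcrc1, and Cyc1 had 0.23. These points share mice and libraries, so r is a description. The SD of log2 CPM within groups was widest for Cox6a2 (0.33), Cox7a1 (0.27) and Cox8b (0.26), and narrowest for Sdha (0.07) and Atp5c1 (0.08), with a median of 0.12 over 81 members.

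In the other muscles and tissues the member medians lay closer to 0. In gastrocnemius 1 gene passed (0.00792%), no member had an unadjusted p under 0.05 (1.95% of all genes), 36 of 83 estimates were positive and the median was -0.0045. In tibialis 1 gene passed (0.0081%), no member had such a p (1.77% of all genes), 54 of 83 were positive and the median was 0.01. Of the 7 slow fibre genes 7 had positive estimates in gastrocnemius (median 0.42) and 1 in tibialis (median -0.22). Of the 7 fast fibre genes it was 2 in gastrocnemius (median -0.01) and 4 in tibialis (median 0.01). None of these genes was called, and their part in the member values was not tested. In heart 81 of 84 estimates were below 0, but by a median of only -0.05, with 0 members under an unadjusted p of 0.05 (3.13% of all genes) and no gene called (0%). In kidney, with 0% called, 76 of 84 were below 0 with a median of -0.09. There 11 members, all lower in KO, had an unadjusted p under 0.05, against 3.35% of all genes. Leaving out a mouse moved that count to 5 without KO mouse 3779417, 27 without KO mouse 3793546, 3 without KO mouse 3805666, 2 without KO mouse 3817943, 1 without WT mouse 3793553, 7 without WT mouse 3805657 and 6 without WT mouse 3805673. KO mouse 3817943 was the lowest KO library for 61 of the 84 members, and without it the median was -0.06. Mitochondrially encoded genes took 18.9% of its counts, against 22.6 to 23.7% in the other KO and 23.1 to 23.9% in the WT kidney libraries. The 6 adipocyte genes summed to 60.5 to 82.2 CPM in KO and 42.3 to 53.1 CPM in WT kidney, without overlap, and 5 of 5 tested had positive estimates with a median of 0.55, none of them called. The part of either in the kidney values was not tested. Ndufa3 had 67.0, 77.0, 72.7, 72.5 and 64.9 CPM in KO kidney and 78.9, 80.2, 79.0 and 78.1 CPM in WT kidney, a log2 fold change of -0.16 ± 0.05 (edgeR adjusted p = 1). Its groups did not overlap, as in 7 of 84 members there, where 1.25% of all genes did so. In lung, with 0% called, 78 of 84 were below 0 with a median of -0.07 and 4 had an unadjusted p under 0.05 (2.06% of all genes), 25 without KO mouse 3805676, among them Ndufs8 with -0.21 ± 0.07. In liver (0% called) 56 of 80 were below 0 with a median of -0.02, and in spleen (0% called) 44 of 81, with a median of -0.01. Liver and spleen had 0 members under an unadjusted p of 0.05, with 1.57% of all genes in liver and 0.846% in spleen. For the kidney and lung fits without a mouse, the share of all genes under an unadjusted p of 0.05 is not given. Whether members moved apart from all genes cannot be told from those counts. A p that misses the threshold does not show that the genotypes have the same level.

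Other genes of mitochondria did not pass between KO and WT soleus either. None of the 13 assembly factors of complex I, 14 of complex IV or 13 genes of the tricarboxylic acid cycle passed, while 10, 12 and 13 of them had positive estimates, with medians of 0.07, 0.16 and 0.15. Sdhaf4, an assembly factor of complex II, had a log2 fold change of 0.61 ± 0.18, Usmg5 of the ATP synthase 0.34 ± 0.11 and Dld, a dehydrogenase subunit, 0.24 ± 0.08 (adjusted p = 0.238 for each). Of 15 regulators of mitochondrial biogenesis 7 were positive in soleus: Esrrg, a nuclear receptor, had 0.65 ± 0.22, while Pprc1, a coactivator, had -0.40 ± 0.11 and Yy1 -0.25 ± 0.08. In EDL 11 of the 15 were positive, and Ppargc1a, the coactivator PGC-1alpha, had 0.41 ± 0.18 (adjusted p = 0.986). In WT soleus against the other WT muscles 5 of the 15 rose and 0 fell, where 12.8% of all genes rose, led by Esrrb (2.51 ± 0.19), Esrrg (1.91 ± 0.16) and Esrra (0.50 ± 0.09), and 9 of 13 tricarboxylic acid cycle genes rose. WT heart against WT skeletal muscle had 5 of the 15 regulators higher and 6 lower, shares near those of all genes (40.8% higher and 39.2% lower). Of these Ppargc1a rose by 1.41 ± 0.09 and Tfam, the mitochondrial transcription factor, fell by 0.60 ± 0.05. Atpif1, the inhibitor of the ATP synthase, was the widest of its list there, at 2.73 ± 0.06. Of 6 assembly factors of complex III 0 were higher and 3 lower in heart, against 39.2% of all genes lower.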

How the data were processed

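Polyadenylated RNA of 9 tissues from 5 KO and 5 WT mice was extracted with MagMax and made into KAPA stranded libraries, per the labels. The column names of all libraries end in the same code, and whether it stands for a sequencing run was not established. The replicate was the mouse, a separate animal per the labels. WT kidney of mouse 3793543 and WT spleen of mouse 3805657 were not among the 88 libraries of the series. The authors deposited expected counts per gene on mm10, per the file headers and the submitters' processing notes. No source used here names the aligner, the counter or the use of strand. The expected counts, 85.6% of them whole, were rounded, and 22 marker sequences, at most 0.0323% of a library, were left out. The authors' deposited RPKM values divide by a transcript length that equalled the annotated exon length within 1% for 35 of 84 members, so levels per length and paralog shares rest on the authors' choice of length. Libraries held 8.21 to 25.1 M counts, and a count of 0 allows up to 3 reads, counting error only.

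Each comparison was fitted over all genes in R 4.3.3 by the quasi-likelihood F test of edgeR 4.0.16 (TMM factors, robust dispersions, filterByExpr with a minimum count of 10 and total of 15), with Benjamini-Hochberg adjustment and a threshold of 0.05. The SE of a log2 fold change comes from the F statistic. Of 87 members 79 passed the filter in all 9 KO-WT fits and 3 in none. Tissue comparisons weighed tissues equally. In them muscles of the same mouse are linked: over 30 pairs of WT muscle libraries of a mouse, the mean correlation of deviations from group means was 0.26. The same mice across tissues make the pairing. Alternatives were DESeq2 1.42.0 size factors and Wald test, no filter, age as covariate, age-matched sets, the mouse as a block, KO mice, and each mouse left out. Leaving KO mouse 3805666 out of the blocked and DESeq2 fits was added after seeing the data. The smallest chi-square per gene over 172 replicate pairs was 5.05, where copies give values near 0. The fits were tested on simulated counts. Of 50 genes changed 1.25 times, 2 were recovered between KO and WT in soleus, 3 in EDL and 1 in heart. For the soleus difference 1 was recovered. At 1.5 times the counts were 30, 29, 24 and 16 of 50 in that order, and at 2 times 50, 48, 49 and 46. Small changes were thus mostly missed in the simulation. The simulated counts had the same dispersion for every gene and no link between muscles of a mouse, so recovery for the members may differ.

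Named are 13 anchor subunits, the paralog sets, members past the threshold or the 3 of smallest p in each KO-WT fit, up to 6 of largest change each way at 1 CPM or more, and 3 genes of smallest p per pathway list. The members and lists were chosen with earlier results of these data known. The values of 1 member are not reported here by name, and its row is left out of the plot of levels by tissue, while counts and medians over the members include it.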

Additional observations from a re-analysis of the deposited data

Results flagged for a closer look

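Of 252 quantities checked for a library far from the others of its group, 18 stood apart, and chance gives about 1 in 20. The quantities of a library are linked and several flags come from the same library, so the 18 cannot be weighed against that rate as independent. In soleus, KO mouse 3805666 had a member share of 2.75% of counts (the other KO libraries 2.10 to 2.26%), Ndufv1, a core subunit of complex I, at 359 CPM (285 to 296 CPM) and Sdhb at 470 CPM (365 to 385 CPM). It was also the KO soleus library with the most slow fibre RNA. In EDL, Ndufab1 reached 72.6 CPM in KO mouse 3817943, against 51.7 to 55.1 CPM in the other KO libraries.

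WT mouse 3793553 was low in EDL. Its member share was 1.26% (other WT libraries 1.53 to 1.60%), Ndufs1 had 232 CPM (280 to 295 CPM), Ndufv1 151 CPM (188 to 197 CPM), Sdha 529 CPM (610 to 634 CPM) and Atp5b 1255 CPM (1482 to 1572 CPM). WT mouse 3805657 was low in gastrocnemius, with Uqcrc1, a core protein of complex III, at 256 CPM (292 to 305 CPM), Cyc1 at 99.8 CPM (118 to 123 CPM) and Atp5b at 1194 CPM (1346 to 1390 CPM). In WT lung the same mouse had the highest Sdha, 224 CPM (212 to 215 CPM).

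In spleen, KO mouse 3817943 had a member share of 0.491% (other KO libraries 0.588 to 0.602%), Ndufv1 at 40.6 CPM (60.0 to 62.8 CPM) and Cox4i1 at 130.4 CPM (188 to 198 CPM). WT mouse 3805673 had Uqcrfs1 at 27.8 CPM (54.4 to 59.3 CPM) and Cyc1 at 22.2 CPM (50.6 to 54.6 CPM). Mitochondrially encoded genes took 9.21% of counts in that KO library and 13.9% in that WT library, and 4.42 to 5.23% in the other 7 spleen libraries. Their part in the low member values was not tested.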

How the results depend on the processing

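No result changed its direction past the threshold under the alternatives run. DESeq2's Wald test in place of edgeR's called 22 members in soleus, 1 in EDL and 10 for the difference between soleus and the other muscles, where edgeR called 0 each. Without KO mouse 3805666, alternatives chosen after seeing the data, DESeq2 called 19 members in soleus and 0 for that difference. It gave an adjusted p to only 942 genes for that difference, and how many of these were members is not given. The fit with the mouse as a replicate block called 0. With the mouse as a replicate block that difference had 6 members called and WT soleus against the other muscles 72, and the pairing by mouse moved no count but the first by over 1.5 times. Leaving out each mouse in turn gave 0 to 1 members in EDL and 0 to 4 for the difference, with 4 without WT mouse 3793543 and 3 without KO mouse 3793546. Other counts moved by less than 1.5 times, between 58 and 68 for WT soleus, 77 and 80 for WT heart and 49 and 52 for WT kidney. Paralog shares from TMM CPM per kilobase of exon, in place of the deposited RPKM, were 94.74% for Cox6a2 in WT heart and 97.17% in WT soleus, 68.97% for Cox7a1 in WT heart and 57.77% in WT soleus, and 86.39% for Cox8b in WT heart and 93.89% in WT soleus. These differ because the authors' lengths differ from the exon lengths, as for Cox6a2 and Cox8b. The cause of the other changes was not tested. With 5 mice a group, the SEs of the KO-WT soleus estimates of the members named in the report ran from 0.09 to 0.15, which limits the differences that could be detected.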

Other observations

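Outside soleus and EDL, the members of smallest p between KO and WT mice had an edgeR adjusted p of 1 each, and their estimates differed in size. With each mouse left out in turn, Cox4i2 ran from -0.60 to -0.27 in gastrocnemius. Atp5s ran from -0.12 to -0.04 there and Cycs from 0.03 to 0.08. Cox4i2 had only 8 to 16 reads in KO and 8 to 22 reads in WT gastrocnemius libraries. In tibialis Uqcrfs1 (0.13 ± 0.08 on the log2 scale), Atp5d (0.11 ± 0.07) and Cox5a (0.15 ± 0.10) led, members that also led in EDL. In heart Uqcr11 and Uqcrq, small subunits of complex III, had -0.11 ± 0.05 and -0.10 ± 0.05, and Ndufb9 -0.09 ± 0.05. In kidney Ndufs4 had 67.6, 69.9, 67.3, 67.2 and 63.2 CPM in KO mice and 76.9, 71.2, 72.3 and 72.2 CPM in WT mice, without overlap. In lung Ndufa11 had 27.1, 29.3, 30.9, 30.9 and 31.9 CPM in KO mice and 32.6, 33.9, 33.7, 32.9 and 34.1 CPM in WT mice, also without overlap, and Atp5k had -0.18 ± 0.07. In liver Atp5s had -0.21 ± 0.12 and Cycs -0.11 ± 0.07, and in spleen Cox5b had -0.24 ± 0.13 and Ndufab1 -0.30 ± 0.20.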
